A study of Mus musculus with 12 samples.

Results

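Adenoviral knockdown of mGULL in mouse liver was compared with a control virus, 4 mice against 4, and the comparison covered the 16256 genes (12084 of them protein-coding) whose mean TPM over these 8 livers reached 1, of 55385 features in the table. TPM is the length-scaled share of a library taken by a gene, set to 1 fixed total. mGULL is a long noncoding RNA (lncRNA), a transcript that codes for no protein, and the labels give the strain as C57BL6 and the tissue as liver for every mouse. Ad-Ctrl mice (labelled GULL_control) carried a Lac adenovirus with the empty virus pAdV5, and Ad-shmGULL mice (labelled mGULL_knockdown) carried a virus expressing a short hairpin RNA (shRNA) against mGULL with the same empty virus. All mice were male, 7 weeks old, received 500000000 plaque-forming units in total and were sampled on day 7. The other 4 of the 12 mice, Ad-shmGULL+hGULL, received the hairpin virus with one expressing the human lncRNA hGULL, and here they enter only the estimate of the spread between mice. Adenovirus that reaches the liver is taken up mostly by hepatocytes, so that bulk liver RNA mixes cells that took up virus with cells that did not.

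The liver is the main site where dietary sugar is broken down by glycolysis and the carbon is turned into fatty acids and triglyceride, a program that insulin and glucose switch on together through the factors SREBP-1c and ChREBP. It is also an organ with a strong interferon response, in which a virus or a cytokine induces a battery of GTPases and antiviral effectors, and with sex-dependent secretion, in which the pulses of growth hormone in males maintain genes such as those of the major urinary proteins. These programs are read below as named gene lists, because the study's own qRT-PCR panel held only a few genes of lipid and glucose metabolism.

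The study designed 4 mGULL hairpins without naming the one that the virus carried. They are shown because they define the perturbation. Each line gives the hairpin 5′ to 3′, with the sense strand of the target in capitals and the loop and antisense strand in lower case.
si1: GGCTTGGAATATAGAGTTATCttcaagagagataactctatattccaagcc
si2: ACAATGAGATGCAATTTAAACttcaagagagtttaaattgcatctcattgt
si3: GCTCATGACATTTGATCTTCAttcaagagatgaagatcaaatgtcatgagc
si4: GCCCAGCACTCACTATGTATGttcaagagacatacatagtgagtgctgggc
Each target of 21 bases had 1 exact match in the GRCm39 genome, on the minus strand of chromosome 8 within exons of the lncRNA gene Gm32006. The match of si1 was at chr8:120149823-120149843, that of si2 at chr8:120150011-120150031, that of si4 at chr8:120150116-120150136 and that of si3 at chr8:120150899-120150919. The target of si3 also lay within an exon of Gm56837, an lncRNA gene annotated on the opposite strand, so that 3 of the 4 targets were exonic in Gm32006 alone. The level of mGULL was not analysed here, so the knockdown itself was not checked in these values.

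Of the neighbors of the mGULL locus, Osgin1, which encodes an oxidative stress-induced growth inhibitor, was at 199, 173, 165 and 180.3 TPM in the Ad-Ctrl mice and 102, 157, 145 and 142 TPM in the Ad-shmGULL mice. The groups did not overlap, but the log2 fold change of -0.41 missed an adjusted p under 0.05 (adjusted p = 0.108). Mlycd, which encodes malonyl-CoA decarboxylase, was at 86.2, 84.4, 84.7 and 88.2 TPM in the Ad-Ctrl mice and 127, 82.98, 84.9 and 99.5 TPM in the Ad-shmGULL mice, and the groups overlapped (adjusted p = 0.411).

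Values after ± are the standard deviation over 4 mice for a mean TPM and the standard error for a log2 fold change, and values per mouse are given in the order of replicates 1 to 4. Fold changes are on the log2(TPM + 1) scale, which understates the change of low genes. Differences were tested with limma on log2(TPM + 1) in 1 model over all 12 mice, and a gene is said to have risen or fallen only at a Benjamini-Hochberg adjusted p under 0.05 in that model. By this rule 406 genes rose (2.5% of those tested) and 137 fell (0.843%). At the cutoff the study used, an absolute log2 fold change above 0.5 with an unadjusted P under 0.05, 866 genes were higher (5.33%) and 375 lower (2.31%) in Ad-shmGULL. All 4 knockdown mice lay above all 4 control mice for 1127 genes (6.93%) and below them for 335 (2.06%), and 504 of the 543 called genes were separated in this way. An unadjusted P under 0.05 in the same model was reached by 3294 of the 16256 tested genes. These shares and this count are the background for every gene list below. When the spread was estimated from the 8 mice alone, 35 genes kept an adjusted p under 0.05 (28 higher, 7 lower), all of them among the 543, and 1134 of the 1241 genes at the study's cutoff were shared. All 543 called genes had an unadjusted P under 0.05 with 8 mice. When 1 mouse was left out, the number of calls was 963, 176, 170 and 198 without Ad-Ctrl replicates 1 to 4 and 427, 199, 1059 and 292 without Ad-shmGULL replicates 1 to 4. Of the 158 called genes that the naming rule takes in, between 62 (without Ad-Ctrl replicate 3) and 150 (without Ad-shmGULL replicate 3) kept their call in these fits and 21 in the fit on 8 mice, and 0 changed direction under any alternative. Whether the mice were independently housed or injected is not given, so that p-values measure the spread between these animals.

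How many genes were higher and how many lower depended on scaling. In TPM, the fold change of the median tested gene was 0.086 on the log2 scale, and scaling by the median of ratios moved that median to -0.003, with 352 genes higher and 344 lower at an adjusted p under 0.05 in place of 406 and 137. At the study's cutoff the same scaling gave 615 genes higher and 543 lower, and quantile normalization gave 577 and 529. Fold changes are therefore to be read relative to a median of 0.086.

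Pairwise correlations of log2(TPM + 1) between the 8 livers lay between 0.954 and 0.981. A few features picked by symbol as ribosomal RNA-like, not the annotated class, took 3.47% to 7.3% of TPM in the control mice. In the knockdown mice they took 4.06% to 10.1%. The highest value was that of Ad-shmGULL replicate 1, which also lay apart on the second principal component (48 against -16.7 to 8.51 in the other 7). On the first principal component Ad-Ctrl replicate 2, at 41.1, and Ad-shmGULL replicate 2, at -40, were the extremes. Albumin (Alb), the defining hepatocyte transcript, was at 48366 to 73620.1 TPM in Ad-Ctrl and 57073 to 63702 TPM in Ad-shmGULL mice. The 37 mitochondrial features were at 0 in all mice. Summed TPM of the 32 tested Kupffer cell and macrophage markers ran from 1376 to 2233 in Ad-Ctrl and from 1438 to 2332 in Ad-shmGULL, and for the 26 T and NK cell markers from 68.2 to 216 and from 77.0 to 144. Fewer cells of a type and less RNA per cell cannot be told apart in bulk liver.

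De novo fatty acid synthesis was the metabolic list with the most uniform rise. Of its 18 tested genes, 12 rose and 0 fell, 15 were higher at the study's cutoff (83.3%, against 5.33% of all genes), and the median log2 fold change was 1.02. The 5 genes of the qRT-PCR panel that rose were Elovl6, Acly, Fasn, Acaca and G6pc, with values of 54.2, 49.3, 50.9 and 55.01 TPM in the Ad-Ctrl and 142, 422, 187 and 176 TPM in the Ad-shmGULL mice for the first. Of the other panel genes described here, Scd1 had a log2 fold change of 1.08 (adjusted p = 0.0678), Pck1 of -0.75 (adjusted p = 0.0946) and Cpt1a of -0.35 (adjusted p = 0.058).

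**Figure D1:**
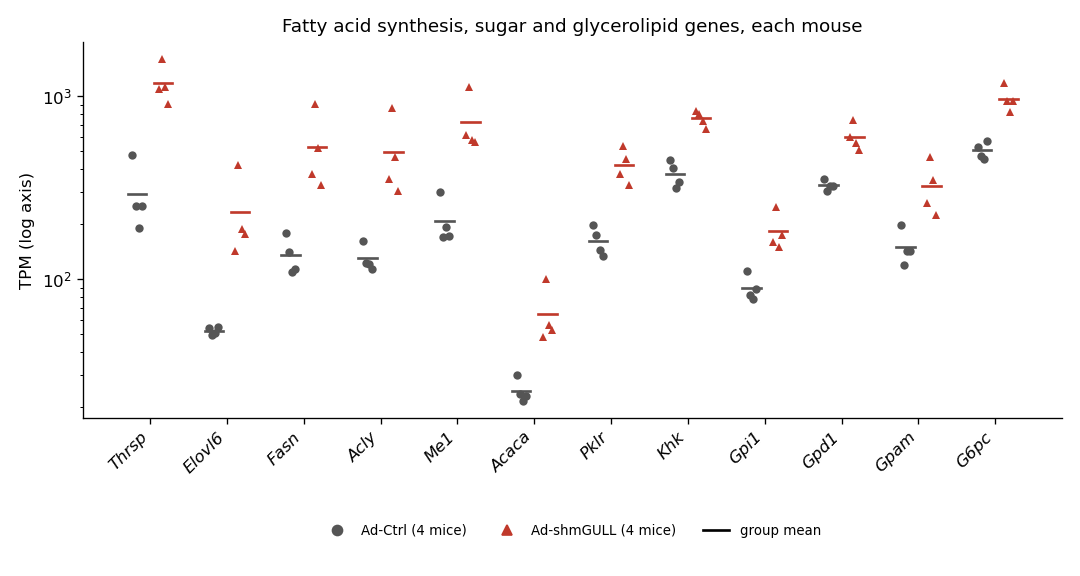
TPM of 12 genes of fatty acid synthesis, sugar breakdown, glycerolipid synthesis and glucose release in each of 4 Ad-Ctrl (grey circles) and 4 Ad-shmGULL livers (red triangles), on a log axis, with group means as bars. In all 12 genes the lowest knockdown mouse lies above the highest control mouse.

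Beyond the panel, Thrsp, whose product Spot 14 promotes lipogenesis, was at 479, 251, 189 and 252 TPM in the Ad-Ctrl mice and 1089, 1586, 1117 and 907 TPM in the Ad-shmGULL mice. Every knockdown mouse was above every control mouse, with log2 fold change 2.06 ± 0.28, adjusted p = 0.00632. Me1, the malic enzyme that supplies NADPH for fatty acid synthesis, was at 298, 169, 193 and 173 TPM in the Ad-Ctrl mice and 613, 1123, 574 and 565 TPM in the Ad-shmGULL mice (log2 fold change 1.76 ± 0.26, adjusted p = 0.00817). Pklr, the liver pyruvate kinase that closes glycolysis, was at 197, 173, 144 and 134 TPM in the Ad-Ctrl mice and 375, 531, 456 and 327 TPM in the Ad-shmGULL mice. Its groups were apart as well, with log2 fold change 1.37 ± 0.16, adjusted p = 0.00589.

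Smaller rises on the same list were those of Mid1ip1, a partner of acetyl-CoA carboxylase, with a log2 fold change of 0.95, Slc25a1, the mitochondrial citrate carrier, of 0.55, and Acacb, the mitochondrial form of acetyl-CoA carboxylase, of 0.71. Pnpla3, a lipid droplet hydrolase whose transcript follows SREBP-1c, was low in all mice and rose from 0.713 ± 0.447 to 3.73 ± 1.93 TPM. Aacs (0.97), Scd1 and Acss2 (0.52) were past the cutoff but not the adjusted p. Acsl5, Scd2 and Elovl1 passed neither. With the spread from 8 mice 6 members were called, and without Ad-shmGULL replicates 1 and 2 together 5, all of them among the 12, and the same 15 members were past the cutoff in that last setting.

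The regulators of this program moved less than its enzymes. Of 18 transcription factors and their partners, 2 rose and 0 fell. Srebf1, which encodes SREBP-1, was at 110.4, 109, 87.5 and 78.9 TPM in the Ad-Ctrl mice and 177, 138, 167 and 155 TPM in the Ad-shmGULL mice (log2 fold change 0.72 ± 0.16, adjusted p = 0.0372). Insig1, a sterol-regulated anchor of SREBP proteins and itself an SREBP target, went from 142 ± 6.80 to 224 ± 47.2 TPM (log2 fold change 0.63 ± 0.13, adjusted p = 0.025). Mlxipl, which encodes ChREBP, was at 141, 167, 142 and 144 TPM in the Ad-Ctrl mice and 168, 228, 171 and 242 TPM in the Ad-shmGULL mice, the groups not overlapping but at an adjusted p of 0.066. The median of the list was 0.07, and it turned to -0.03 with median-of-ratios scaling.

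Sugar breakdown rose with it. Of 35 tested genes of glycolysis and fructose metabolism, 12 rose and 0 fell, 9 were higher and 1 lower at the cutoff, and 15 had all 4 knockdown mice above all control mice (42.9%, against 6.93% of all genes). Khk, ketohexokinase, which phosphorylates fructose, was at 449.6, 403, 314 and 338 TPM in the Ad-Ctrl mice and 835, 803, 733 and 666 TPM in the Ad-shmGULL mice (log2 fold change 1.02 ± 0.12, adjusted p = 0.00589). Every knockdown mouse lay above every control mouse. Tkfc, which phosphorylates glyceraldehyde from fructose, rose by 0.91 on the log2 scale.

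Of the glycolytic enzymes shared with glucose, Gpi1 (phosphoglucose isomerase) had a log2 fold change of 1.02, Eno1 (enolase) of 0.71, Pfkl (liver phosphofructokinase) of 0.51 and Pgk1 (phosphoglycerate kinase) of 0.36. Eno1b, a near-identical copy of Eno1, shares reads with it and its own value is uncertain. Pdk1, a kinase that restrains pyruvate dehydrogenase, rose from 29.03 ± 0.946 to 47.2 ± 5.96 TPM (log2 fold change 0.68 ± 0.09, adjusted p = 0.00718). Pfkfb3, which makes the activator fructose 2,6-bisphosphate, was the 1 member lower at the cutoff (-0.83), and Slc2a2, the liver glucose transporter, had log2 fold change 0.36 ± 0.10, adjusted p = 0.0621 with no overlap between groups. There were 3 calls with the spread from 8 mice and 4 without Ad-shmGULL replicates 1 and 2, all among the 12. Leaving out 1 mouse gave 6 to 13, with 6 without Ad-Ctrl replicate 2, 3 or 4 and 7 without Ad-shmGULL replicate 4.

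Genes around glucose 6-phosphate were mixed. G6pc, glucose-6-phosphatase, which releases glucose, was at 531, 469, 454 and 567 TPM in the Ad-Ctrl mice and 1180.1, 943, 821 and 937 TPM in the Ad-shmGULL mice (log2 fold change 0.93 ± 0.12, adjusted p = 0.00589). It was the 1 riser of 30 genes of gluconeogenesis and its regulators. At the cutoff 2 of the 30 were higher (6.67%, near the 5.33% of all genes) and 4 lower (13.3%, against 2.31%). These counts were 1 and 0 without Ad-shmGULL replicates 1 and 2, and 1 and 6 with median-of-ratios scaling. Pck1, phosphoenolpyruvate carboxykinase, was at 2843, 4449.7, 4505 and 3869 TPM in the Ad-Ctrl mice and 2377, 1630.0, 2196 and 3216 TPM in the Ad-shmGULL mice, and the groups overlapped. Crem, a cAMP-responsive regulator, fell from 8.69 ± 0.793 to 5.87 ± 0.624 TPM (log2 fold change -0.50 ± 0.10, adjusted p = 0.0224). Tat, which breaks down tyrosine and is induced by glucocorticoids, was lower at the cutoff, with a log2 fold change of -0.80.

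Of 23 glycogen genes, 17 had a log2 fold change above 0 and 6 below it, and 4 rose (2 without Ad-Ctrl replicate 2, 3 or 4 or Ad-shmGULL replicate 1 or 2, 1 without both of the latter, and 0 with the spread from 8 mice) while 0 fell. At the cutoff 6 were higher (3 without Ad-Ctrl replicate 2) and 0 lower, or 5 and 2 with median-of-ratios scaling. Pygl, the liver glycogen phosphorylase, was at 214, 206, 200.3 and 181 TPM in the Ad-Ctrl mice and 282, 366, 290.1 and 306 TPM in the Ad-shmGULL mice (log2 fold change 0.63 ± 0.10, adjusted p = 0.00958). Ppp1r3b, a glycogen-targeting subunit of protein phosphatase 1, was at 90.4, 63.1, 95.2 and 99.1 TPM in the Ad-Ctrl mice and 168, 182, 142 and 138 TPM in the Ad-shmGULL mice (log2 fold change 0.86 ± 0.14, adjusted p = 0.0111). A related subunit, Ppp1r3g, rose from 3.37 ± 0.448 to 8.87 ± 3.69 TPM, whereas Ppp1r3c had a log2 fold change of -0.43 (adjusted p = 0.11). Of the pentose phosphate and NADPH genes, Tkt (transketolase) and Shpk rose along with Me1, 3 of 15 in all. G6pdx, the entry enzyme of that pathway, was at 16.5, 11.7, 12.96 and 16.6 TPM in the Ad-Ctrl mice and 9.26, 21.6, 16.8 and 12.8 TPM in the Ad-shmGULL mice, and its groups overlapped.

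Glycerolipid synthesis followed, with 4 of 19 tested genes rising (2 without Ad-Ctrl replicate 3 or Ad-shmGULL replicate 2, and 1 with the spread from 8 mice) and 0 falling. Gpd1, which makes glycerol 3-phosphate, was at 353, 305, 321 and 325 TPM in the Ad-Ctrl mice and 602, 737, 556 and 511 TPM in the Ad-shmGULL mice (log2 fold change 0.87 ± 0.12, adjusted p = 0.00718). Gpam, the first acyltransferase, was at 198, 120.003, 143 and 142 TPM in the Ad-Ctrl mice and 262, 462, 351 and 225 TPM in the Ad-shmGULL mice (log2 fold change 1.07 ± 0.22, adjusted p = 0.0253). Agpat2, the second, rose by 0.62 on the log2 scale and Dgat2, which completes the triglyceride, by 0.51. Enzymes of 3 acylation steps of the pathway and the one that supplies its backbone were thus called, each with the groups apart. Mttp, the transfer protein that loads lipid on apolipoprotein B, rose from 217 ± 19.8 to 393 ± 88.6 TPM (log2 fold change 0.84 ± 0.14, adjusted p = 0.0117), while Apob itself had a log2 fold change of 0.02.

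Of 24 genes of lipid droplets and lipases, 3 rose and 1 fell, 19 had a log2 fold change above 0, and 9 were apart upward and 1 downward. The rises numbered 2 without Ad-shmGULL replicate 1 and 0 without Ad-shmGULL replicate 2, Ad-Ctrl replicate 2 or 4 or with the spread from 8 mice, and the fall was lost without Ad-Ctrl replicate 3 or 4, without both knockdown mice 1 and 2 and with the spread from 8 mice. Pnpla2, which encodes adipose triglyceride lipase, the enzyme that begins triglyceride breakdown, was at 142, 145, 151 and 172 TPM in the Ad-Ctrl mice and 78.8, 101, 101 and 113 TPM in the Ad-shmGULL mice. It fell, with no overlap and log2 fold change -0.63 ± 0.12, adjusted p = 0.0184. Of the enzymes that act after it or beside it, Lipe, Mgll and Ces1d rose, by 0.46, 0.50 and 0.61 on the log2 scale. Plin2, the perilipin that coats hepatic droplets, had log2 fold change 0.31 ± 0.15, adjusted p = 0.272, and Cidec was at 37.8, 4.96, 18.9 and 22.2 TPM in the Ad-Ctrl mice and 26.7, 38.1, 44.8 and 17.5 TPM in the Ad-shmGULL mice, the groups overlapping widely. In fatty acid uptake, Acsl3 and Slc27a4, which activate fatty acids, rose (0.57 and 0.55), 2 of 22 genes, with 1 call without Ad-shmGULL replicate 1 or 2 and 0 without both. Cd36, the scavenger receptor for fatty acids, was at 93.9, 30.1, 57.4 and 83.5 TPM in the Ad-Ctrl mice and 142, 342, 109.7 and 164 TPM in the Ad-shmGULL mice, higher in every knockdown mouse but with an adjusted p of 0.0555.

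Fatty acid oxidation genes leaned upward in both compartments. In mitochondria, 22 of 25 genes had a log2 fold change above 0, with a median of 0.21, 2 rose, Hadha and Acot2 (1 without Ad-shmGULL replicate 1, 0 without replicate 2 or any 1 of Ad-Ctrl replicates 2 to 4), 5 were apart upward (20%, against 6.93% of all genes) and 1 was higher at the cutoff (4%, against 5.33%). Cpt1a, the gate of mitochondrial entry, was at 283, 283, 316 and 329 TPM in the Ad-Ctrl mice and 215, 209, 266 and 262 TPM in the Ad-shmGULL mice, lower in every knockdown mouse, with a log2 fold change of -0.35 and an adjusted p of 0.058. In peroxisomes and in omega oxidation, 27 of 37 had a log2 fold change above 0, with a median of 0.27, 9 were apart upward (24.3%), 6 rose (2 without Ad-Ctrl replicate 2 or Ad-shmGULL replicate 2, 1 without Ad-Ctrl replicate 4 or with the spread from 8 mice) and 10 were higher at the cutoff (27.0%). Acaa1b, a peroxisomal thiolase, was at 1218, 1082, 1086 and 1024 TPM in the Ad-Ctrl mice and 3211, 2037, 2083 and 1749 TPM in the Ad-shmGULL mice (log2 fold change 1.01 ± 0.16, adjusted p = 0.00988). Abcd2, a peroxisomal fatty acid importer, rose from 8.83 ± 2.74 to 24.1 ± 10.6 TPM and Vnn1, a pantetheinase, from 70.9 ± 9.09 to 108 ± 15.95. Cyp4a14, a fatty acid omega-hydroxylase, was at 125, 155, 434 and 122 TPM in the Ad-Ctrl mice and 1396, 682, 463 and 381 TPM in the Ad-shmGULL mice, and the groups overlapped through Ad-Ctrl replicate 3. No test compared the 2 compartments.

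The Acot family of acyl-CoA thioesterases, which release free fatty acids from coenzyme A, had the highest share past the cutoff in the upward direction of 233 groups of genes that share a symbol root and have at least 8 tested members. Of 11 tested members, 7 were higher (63.6%; 4 without Ad-shmGULL replicates 1 and 2) and 3 rose (1 without Ad-Ctrl replicate 4 or Ad-shmGULL replicate 2 or with the spread from 8 mice, and 0 without both knockdown mice). Acot3, a peroxisomal member, was at 8.01, 10.5, 13.1 and 7.82 TPM in the Ad-Ctrl mice and 33.7, 48.9, 29.9 and 23.7 TPM in the Ad-shmGULL mice (log2 fold change 1.67 ± 0.32, adjusted p = 0.0191), Acot2, its mitochondrial neighbor, at 15.4, 8.44, 11.1 and 12.5 TPM in the Ad-Ctrl mice and 56.8, 36.9, 21.03 and 17.7 TPM in the Ad-shmGULL mice, and Acot7, a cytosolic member, went from 22.02 ± 2.70 to 33.6 ± 1.797 TPM (log2 fold change 0.59 ± 0.09, adjusted p = 0.00958). Acot2 and Acot3 are near-identical copies in 1 gene cluster, so reads may be split between them. No gene passed the cutoff in 87 of the 233 groups.

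The list of cholesterol synthesis and uptake moved in the same direction, with a median of 0.27. It had fewer calls, 4 of 27, and 7 of 27 past the cutoff (11 without Ad-shmGULL replicate 1 and 4 without replicate 3). Among the calls were Acat2 (0.67), Rdh11 (0.82), a retinol dehydrogenase, and Pcyt2 (0.28), an enzyme of phosphatidylethanolamine synthesis. Without any 1 of Ad-Ctrl replicates 2 to 4 or Ad-shmGULL replicate 2 the number of calls was 0, and it was 8 without Ad-shmGULL replicate 1 and 2 without replicate 3 or 4.

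**Figure D2:**
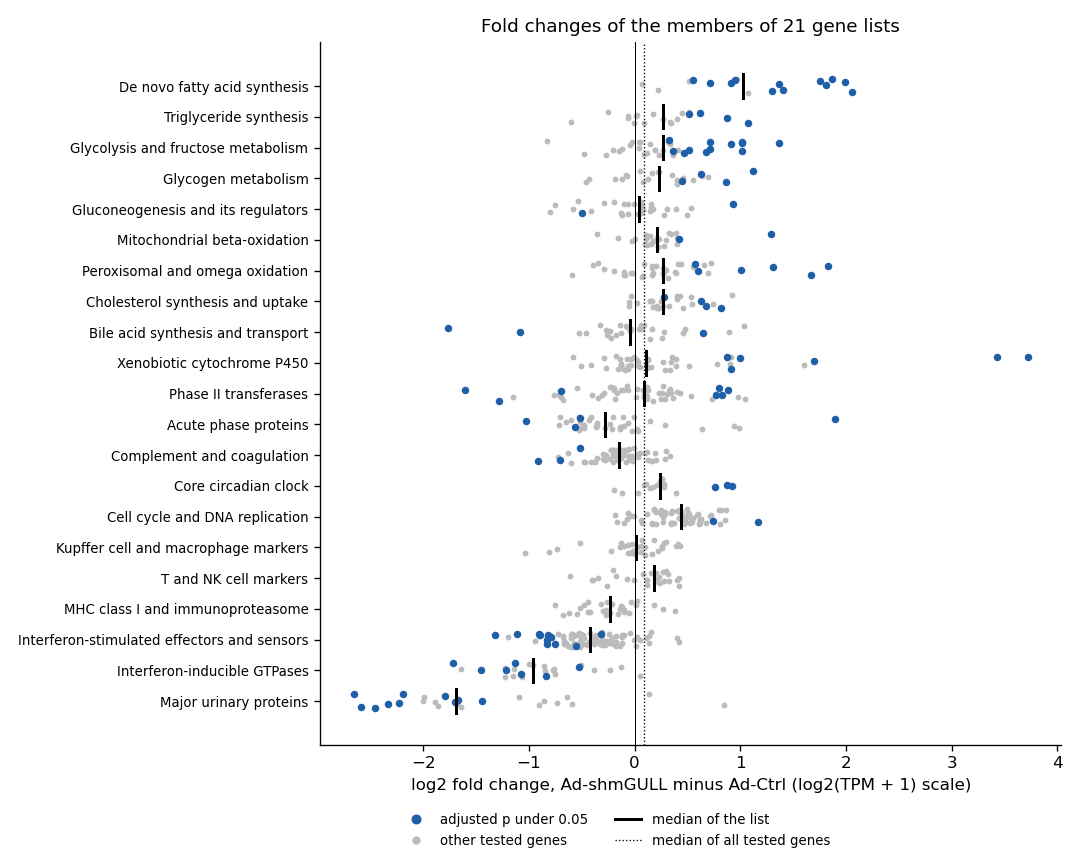
Log2 fold change (Ad-shmGULL minus Ad-Ctrl, log2(TPM + 1) scale) of every tested member of 21 gene lists, blue where the adjusted p was under 0.05, with the median of each list (bar) and of all tested genes (dotted line, 0.086). The list of fatty acid synthesis lies farthest to the right and those of the major urinary proteins and interferon-inducible GTPases farthest to the left.

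Interferon-inducible genes were lower in the knockdown livers. Over 2 lists together, 108 of 118 tested genes had a log2 fold change below 0, 57 were lower at the study's cutoff and 0 higher. Of the 93 effectors and sensors, 11 fell, 36 were lower at the cutoff (38.7%, against 2.31% of all genes) and the median log2 fold change was -0.42. Of the 25 GTPases, 7 fell, 21 were lower at the cutoff (84%) and the median was -0.96, the lowest of the lists other than the major urinary proteins.

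The GTPases of the IRG and GBP families attack membranes that enclose intracellular pathogens and are induced above all by interferon-gamma. Ifi47 was at 135, 231, 135 and 91.5 TPM in the Ad-Ctrl mice and 22.6, 52.7, 57.9 and 44.6 TPM in the Ad-shmGULL mice (log2 fold change -1.72 ± 0.29, adjusted p = 0.013). Irgm1, a regulator of the other IRG proteins, was at 113, 168, 132 and 87.7 TPM in the Ad-Ctrl mice and 27.9, 66.6, 78.6 and 61.8 TPM in the Ad-shmGULL mice (log2 fold change -1.14 ± 0.28, adjusted p = 0.0447), and Gbp6 fell from 7.49 ± 2.26 to 3.08 ± 1.24 TPM. In each of these the knockdown mice lay below all control mice. The most abundant member, Iigp1, was at 829.7, 1181, 814 and 506 TPM in the Ad-Ctrl mice and 181, 471, 502 and 395 TPM in the Ad-shmGULL mice, also apart, with an adjusted p of 0.0653. In these 4 genes Ad-shmGULL replicate 1 was the lowest mouse and Ad-Ctrl replicate 2 the highest.

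Among the effectors, Ifit1, which binds viral RNA, was at 46.7, 74.6, 48.3 and 25.9 TPM in the Ad-Ctrl mice and 12.3, 17.5, 24.7 and 18.3 TPM in the Ad-shmGULL mice (log2 fold change -1.33 ± 0.27, adjusted p = 0.0235). Rsad2, the antiviral enzyme viperin, was at 35.99, 24.2, 22.6 and 19.4 TPM in the Ad-Ctrl mice and 9.05, 16.1, 14.7 and 12.9 TPM in the Ad-shmGULL mice (log2 fold change -0.90 ± 0.19, adjusted p = 0.0257), and Mx2, an antiviral dynamin-like GTPase, was at 12.7, 19.8, 13.4 and 10.7 TPM in the Ad-Ctrl mice and 7.08, 7.26, 8.17 and 7.12 TPM in the Ad-shmGULL mice (log2 fold change -0.82 ± 0.15, adjusted p = 0.0144). Isg15, a ubiquitin-like modifier, fell from 94.1 ± 34.3 to 42.7 ± 15.7 TPM with overlapping groups. Of the factors that carry the signal, Irf7 fell (-0.82). Of 29 genes of MHC class I presentation and the immunoproteasome 0 were called by limma, 11 had an unadjusted p under 0.05 and 5 were lower at the cutoff (3 without Ad-Ctrl replicate 1 or 2 or Ad-shmGULL replicate 1 or 4, and 8 without Ad-shmGULL replicate 3). Among them Tap1, a peptide transporter, had a log2 fold change of -0.68 (adjusted p = 0.062).

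**Figure D3:**
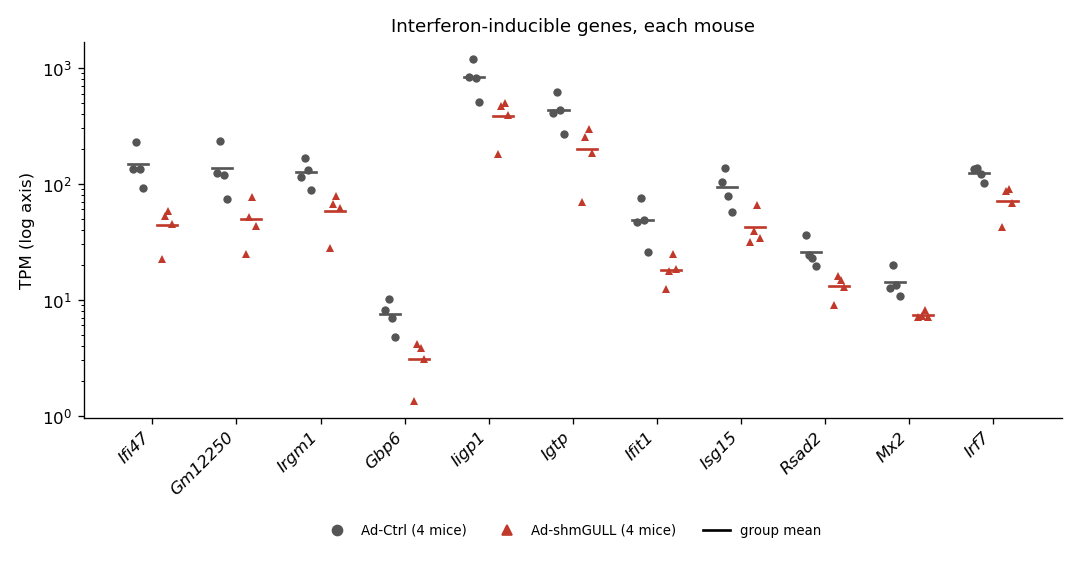
TPM of 11 interferon-inducible genes in each of 4 Ad-Ctrl (grey circles) and 4 Ad-shmGULL livers (red triangles), on a log axis, with group means as bars. Every group mean is lower with Ad-shmGULL, and Ad-shmGULL replicate 1 is the lowest mouse for all 11 genes.

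The interferon counts depended on single animals. At the cutoff, 18 effectors were lower without Ad-shmGULL replicate 1 and 23 without Ad-Ctrl replicate 1, while 21 GTPases moved to between 17 and 22 over all 8 omissions. At the adjusted p the count of effectors was 1 without Ad-Ctrl replicate 2, 2 without replicate 3, 7 without replicate 1, 6 without Ad-shmGULL replicate 1, 4 without replicate 4 and 0 with the spread from 8 mice. That of GTPases was 1 without Ad-Ctrl replicate 2 or 3 or Ad-shmGULL replicate 2, 2 without Ad-shmGULL replicate 1 or 4, 12 without Ad-shmGULL replicate 3 and 0 with the spread from 8 mice. Without Ad-shmGULL replicates 1 and 2 together, 24 effectors, 23 of them among the 36, and 17 GTPases, all among the 21, were lower at the cutoff. Median-of-ratios scaling raised the calls to 27 and 11.

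Immune cell markers held few calls. Of 32 Kupffer cell and macrophage markers 0 were called by limma, 2 had an unadjusted p under 0.05 and 1, Marco, was lower at the cutoff. Of 26 T and NK cell, 11 MHC class II and 13 neutrophil genes 0 were called, 0, 0 and 0 had an unadjusted p under 0.05, and 0 were past the cutoff. Ad-Ctrl replicate 1 stood apart in the MHC class II and the T and NK cell lists, but not in the Kupffer cell and neutrophil lists. Its summed MHC class II level was 2506 TPM, against 739 to 1219 TPM in the other control mice and 1084 to 1843 TPM in the knockdown mice. Without this mouse 3 MHC class II genes rose and 5 were higher at the cutoff, as were 6 T and NK cell markers. Clec4f, a marker of Kupffer cells, was at 46.2, 63.2, 50.2 and 77.3 TPM in the Ad-Ctrl mice and 46.2, 49.6, 61.8 and 66.4 TPM in the Ad-shmGULL mice, the groups overlapping widely. The level of viral RNA in each liver was not analysed here, so its part in the interferon values was not tested.

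Promoters are shown of fallen interferon genes that hold the letters of the interferon-stimulated response element (ISRE). They were chosen from the called members because every match lay inside the bases shown. The presence of the motif in them was thus fixed by the choice. The motif, 2 copies of GAAA with 2 bases of any kind between them, was searched on both strands in RefSeq sequences of GRCm38.p6 that run from 250 bases before to 50 bases after the gene start, and matches may overlap one another. It was present for 1079 of 27025 genes with such a sequence (3.99%), for 39 of the 73 effectors and sensors that matched a sequence (53.4%) and for 13 of the 15 GTPases (86.7%). Of the called members with a sequence, 5 of 9 effectors and 3 of 4 GTPases held it. Below, each sequence is written 5′ to 3′ on the strand of the gene, with the motif in capitals, and covers the 150 bases before the gene start. The windows are chr19:34640739-34640888 (plus strand) for Ifit1, chr5:120887614-120887763 (minus strand) for Oas1g, chr12:26456453-26456602 (minus strand) for Rsad2, chr11:58183693-58183842 (plus strand) for Gm12250 and chr11:48871421-48871570 (minus strand) for Irgm1.
Ifit1: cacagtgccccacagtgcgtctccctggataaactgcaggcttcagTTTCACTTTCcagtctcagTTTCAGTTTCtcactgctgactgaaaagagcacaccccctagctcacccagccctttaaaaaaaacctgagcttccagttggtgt
Oas1g: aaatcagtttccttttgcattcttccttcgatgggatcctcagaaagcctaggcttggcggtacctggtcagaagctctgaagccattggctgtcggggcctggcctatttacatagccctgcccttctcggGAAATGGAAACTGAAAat
Rsad2: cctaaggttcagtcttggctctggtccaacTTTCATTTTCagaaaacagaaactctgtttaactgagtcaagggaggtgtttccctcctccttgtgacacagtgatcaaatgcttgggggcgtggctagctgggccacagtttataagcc
Gm12250: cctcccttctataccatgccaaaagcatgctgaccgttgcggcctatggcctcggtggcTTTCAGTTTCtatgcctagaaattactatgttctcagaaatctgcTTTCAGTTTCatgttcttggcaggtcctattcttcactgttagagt
Irgm1: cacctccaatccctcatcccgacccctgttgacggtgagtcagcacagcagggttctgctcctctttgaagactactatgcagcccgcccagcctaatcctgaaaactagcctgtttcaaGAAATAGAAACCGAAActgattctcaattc
In Ifit1 the motif starts 104 and 85 bases before the gene start, in Rsad2 120 bases before it, and in Gm12250 91 and 46 bases before it. In Oas1g (18 and 12 bases before it) and Irgm1 (30 and 24 bases) both matches overlap. Both interferon lists were drawn up from genes known to answer interferon, so the share of promoters with the motif describes the lists and not these livers. In the same windows the E-box CACGTG was present for 1 of 16 genes of fatty acid synthesis, Slc25a1 (6.25%), and for 5 of 33 of glycolysis and fructose metabolism (15.2%), against 11.6% of the 9660 tested protein-coding genes with a sequence. The SRE letters TCACNCCAC were present for 0 of 16 and 2 of 33 of these genes, against 1.44% of the 9660. The GAS letters TTCNNNGAA were present for 8 of 15 GTPases and 10 of 73 effectors, against 8.4%.

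The major urinary proteins, carriers of pheromones that male mouse liver secretes in bulk, were the list with the lowest median, -1.69. Of 24 tested genes, 10 fell, 21 were lower at the cutoff (87.5%, against 2.31% of all genes) and 0 were higher. Their summed level was 15720.0, 26590.0, 32427 and 21821 TPM in the Ad-Ctrl mice and 10387, 8447, 13807 and 17613 TPM in the Ad-shmGULL mice. The sums overlapped, since Ad-Ctrl replicate 1 lay below Ad-shmGULL replicate 4. The members are near-identical copies in 1 cluster, so reads may be split among them and a value for a single member is uncertain.

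Mup14 was at 487, 773, 849.6 and 805 TPM in the Ad-Ctrl mice and 239, 159.9, 296 and 409 TPM in the Ad-shmGULL mice (log2 fold change -1.45 ± 0.28, adjusted p = 0.0188). Mup15 was at 42.04, 108, 143 and 209 TPM in the Ad-Ctrl mice and 8.20, 10.9, 23.1 and 39.6 TPM in the Ad-shmGULL mice (log2 fold change -2.59 ± 0.52, adjusted p = 0.0228). In both, all knockdown mice lay below all control mice. Mup7 was at 677, 2033, 2041 and 997 TPM in the Ad-Ctrl mice and 186, 100.1, 330.4 and 695 TPM in the Ad-shmGULL mice, where the groups overlapped (log2 fold change -2.33 ± 0.51, adjusted p = 0.0321), and Mup19 fell from 216 ± 84.9 to 42.3 ± 43.8 TPM. Without Ad-Ctrl replicate 2, 3 or 4, or with the spread from 8 mice, 0 members were called, and without replicate 1 there were 16. Without Ad-shmGULL replicate 1 there were 4 calls and without replicate 2 there was 1, while at the cutoff 11 members were lower without both.

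**Figure D4:**
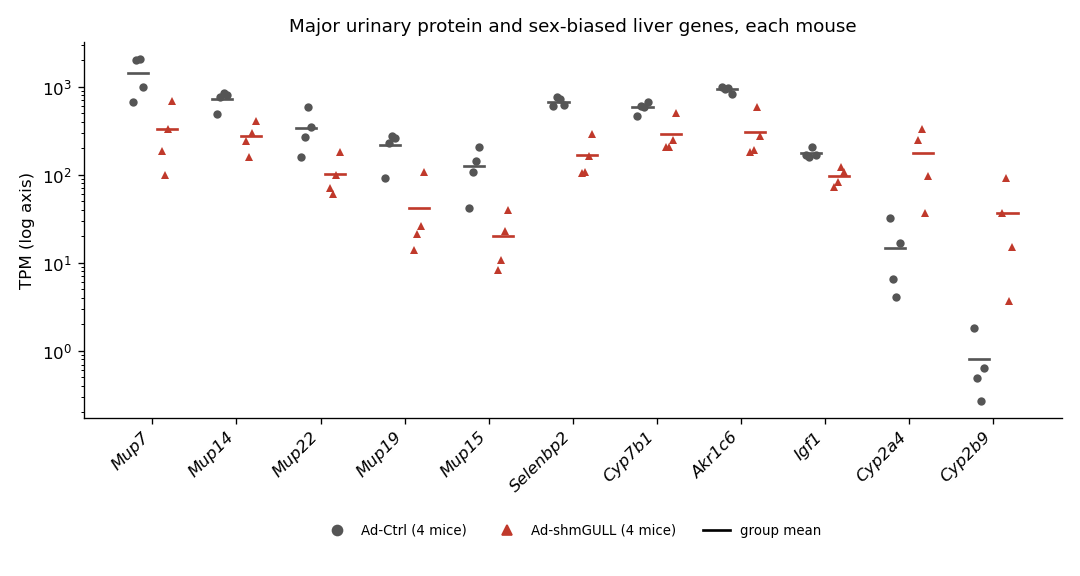
TPM of 5 major urinary protein genes and 6 further liver genes in each of 4 Ad-Ctrl (grey circles) and 4 Ad-shmGULL livers (red triangles), on a log axis, with group means as bars. The 9 genes on the left have lower means with Ad-shmGULL and Cyp2a4 and Cyp2b9 have higher ones, with a wide spread between mice.

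Genes with male- or female-biased expression, taken from a list of the growth hormone axis, were divided into 2 lists after their values had been seen. Lists may share members, so the male-biased counts are not independent of those of the major urinary proteins. Of 11 female-biased genes only 3 reached the mean TPM needed to be tested. Among these 1 rose, 2 were higher at the cutoff and 0 lower. The mean includes the knockdown mice, so a gene almost absent from control mice could be tested only if it was higher with the knockdown. The lack of lower genes on this list was thus partly set by the filter. Of 20 male-biased genes, 3 fell and 10 were lower at the cutoff (50%; 5 without Ad-shmGULL replicate 2), but 3 were higher at the cutoff, among them Cyp4a12a at 354, 300.3, 347 and 342 TPM in the Ad-Ctrl mice and 415, 759.7, 362 and 822 TPM in the Ad-shmGULL mice. Selenbp2, a selenium-binding protein, was at 605, 766, 730.005 and 615 TPM in the Ad-Ctrl mice and 105, 107, 163 and 289.8 TPM in the Ad-shmGULL mice (log2 fold change -2.15 ± 0.30, adjusted p = 0.00718). Its groups were far apart. Cyp7b1, the oxysterol 7-alpha-hydroxylase of the alternative bile acid pathway, was at 469, 600.1, 585 and 672 TPM in the Ad-Ctrl mice and 209, 206, 247 and 503 TPM in the Ad-shmGULL mice (log2 fold change -1.09 ± 0.24, adjusted p = 0.0305) and Ugt2b38, a glucuronosyltransferase, fell from 16.8 ± 7.05 to 5.09 ± 3.71 TPM, both with overlap through Ad-shmGULL replicate 4 and Ad-Ctrl replicate 1. Hsd3b5 and Elovl3, which are also male-biased, had log2 fold changes of -0.82 and -0.04 and were not called.

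Igf1, the growth factor that growth hormone induces in liver, was at 169.8, 161, 209 and 168 TPM in the Ad-Ctrl mice and 72.1, 81.99, 124 and 108 TPM in the Ad-shmGULL mice. It fell, with the groups apart and log2 fold change -0.89 ± 0.16, adjusted p = 0.0136. The receptor gene Ghr was at 156, 157, 191 and 161 TPM in the Ad-Ctrl mice and 102, 148, 157 and 182 TPM in the Ad-shmGULL mice, the groups overlapping, and the feedback inhibitor Socs2, a target of growth hormone through STAT5, was at 6.85, 9.59, 5.59 and 7.48 TPM in the Ad-Ctrl mice and 1.26, 8.06, 1.93 and 3.15 TPM in the Ad-shmGULL mice (adjusted p = 0.193). Bcl6, a repressor with male-biased expression, ranged from 11.4 to 54.2 TPM over the 8 livers with no separation. Akr1c6, a steroid and prostaglandin reductase, was at 1005, 947, 961 and 830.4 TPM in the Ad-Ctrl mice and 183, 189.7, 589 and 275 TPM in the Ad-shmGULL mice (log2 fold change -1.76 ± 0.29, adjusted p = 0.0117), and Mgst1, a microsomal glutathione transferase, was at 2458, 2278, 2857 and 2716 TPM in the Ad-Ctrl mice and 732, 844, 2097 and 951 TPM in the Ad-shmGULL mice (log2 fold change -1.28 ± 0.26, adjusted p = 0.0226). In both, Ad-shmGULL replicate 3 was closest to the control mice.

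The largest rises of the comparison were in 2 cytochrome P450 genes that are female-biased in adult mouse liver. Cyp2b9 was at 1.797, 0.497, 0.272 and 0.644 TPM in the Ad-Ctrl mice and 36.6, 92.8, 3.65 and 15.1 TPM in the Ad-shmGULL mice (log2 fold change 3.72 ± 0.83, adjusted p = 0.033). Cyp2a4 was at 32.3, 6.58, 4.06 and 16.6 TPM in the Ad-Ctrl mice and 246, 332, 37.1 and 95.7 TPM in the Ad-shmGULL mice (log2 fold change 3.43 ± 0.77, adjusted p = 0.0357). Every knockdown mouse was above every control mouse, but in Cyp2a4 the lowest knockdown value was near the highest control value, and the spread among knockdown mice was wide, with replicate 2 the highest in both. Of 45 xenobiotic cytochrome P450 genes 6 rose, 0 fell and 11 were higher at the cutoff (24.4%). Cyp2c29, the most abundant of the called ones, was at 705, 947, 1243 and 947 TPM in the Ad-Ctrl mice and 1577, 2219.9, 1523 and 2335 TPM in the Ad-shmGULL mice (log2 fold change 0.996 ± 0.20, adjusted p = 0.0234), and Cyp2c55 rose from 9.49 ± 4.01 to 33.3 ± 13.2 TPM. Copies of the Cyp2a and Cyp2c clusters share sequence, so reads may be split between them. The list held 0 calls without Ad-Ctrl replicate 2 or 4 or Ad-shmGULL replicate 2 and with the spread from 8 mice, 3 without Ad-Ctrl replicate 3 and 1 without Ad-shmGULL replicate 4, and its 11 genes past the cutoff were also 11 without Ad-shmGULL replicates 1 and 2.

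Secreted plasma proteins were lower on average. Of 39 acute phase genes, 3 fell (7 without Ad-Ctrl replicate 1, and 1 without Ad-Ctrl replicate 2, 3 or 4 or Ad-shmGULL replicate 1), 1 rose and 8 were lower at the cutoff (20.5%; 4 without Ad-shmGULL replicate 1 and 5 without replicate 2), with a median of -0.28. Itih3, an inter-alpha-trypsin inhibitor heavy chain, was at 495, 653, 669 and 621 TPM in the Ad-Ctrl mice and 216, 289.5, 400.1 and 307 TPM in the Ad-shmGULL mice (log2 fold change -1.03 ± 0.18, adjusted p = 0.0122), and Crp and Fgb, C-reactive protein and the fibrinogen beta chain, fell by less, with log2 fold changes of -0.56 and -0.52. Hamp2, a hepcidin paralog, went the other way, at 46.7, 23.8, 18.4 and 31.5 TPM in the Ad-Ctrl mice and 141, 138, 56.9 and 123 TPM in the Ad-shmGULL mice (log2 fold change 1.90 ± 0.34, adjusted p = 0.015), whereas the iron hormone gene Hamp itself was lower at the cutoff. Of 58 complement and coagulation genes, C9, C8b and Fgb fell and 0 rose (0 calls without Ad-Ctrl replicate 2, 3 or 4 or Ad-shmGULL replicate 2, 1 without Ad-shmGULL replicate 1, 6 without Ad-Ctrl replicate 1 and 5 without Ad-shmGULL replicate 3), with C9 at 521, 676, 689 and 592 TPM in the Ad-Ctrl mice and 317, 328, 402 and 489 TPM in the Ad-shmGULL mice (log2 fold change -0.70 ± 0.14, adjusted p = 0.0226). The first 2 encode parts of the membrane attack complex. Apoa1, the main protein of high-density lipoprotein, was at 13466, 17421, 12699.9 and 11478 TPM in the Ad-Ctrl mice and 8331, 6897, 12260.0 and 9151 TPM in the Ad-shmGULL mice (adjusted p = 0.114).

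Of 17 core clock genes 3 rose, all with the groups apart, and 0 fell (2 rises without Ad-shmGULL replicate 2 and 3 without replicate 1). Cry1, a repressor of the clock, was at 6.66, 7.37, 6.74 and 7.52 TPM in the Ad-Ctrl mice and 16.2, 17.3, 12.5 and 12.02 TPM in the Ad-shmGULL mice (log2 fold change 0.93 ± 0.12, adjusted p = 0.00632). Bhlhe40, a further repressor, rose from 60.5 ± 9.34 to 113 ± 20.95 TPM. Of 24 clock output genes 4 rose, among them Ces1e, Wee1 and Lonrf3 (2 without any 1 of Ad-Ctrl replicates 2 to 4 or Ad-shmGULL replicate 2, and 8 without Ad-shmGULL replicate 3). The hour at which the mice were killed is not given by mouse, so its part in these values was not tested.

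Cell cycle genes were higher at the cutoff more often than they were called. Of 74 tested genes, 24 were past it (32.4%, against 5.33% of all genes), 2 rose and the median log2 fold change was 0.44. Rrm2, a subunit of ribonucleotide reductase, was at 40.5, 18.6, 20.1 and 24.4 TPM in the Ad-Ctrl mice and 67.1, 78.1, 42.9 and 45.7 TPM in the Ad-shmGULL mice (log2 fold change 1.16 ± 0.26, adjusted p = 0.0358), and Cdkn3 rose from 1.53 ± 0.595 to 3.19 ± 0.768 TPM. This count was 49 without Ad-Ctrl replicate 1, 14 without Ad-Ctrl replicate 2, 13 without Ad-shmGULL replicate 2 and 4 without Ad-shmGULL replicates 1 and 2, and the number of calls was 24 without Ad-Ctrl replicate 1 and 0 without Ad-Ctrl replicate 2, 3 or 4 or Ad-shmGULL replicate 1 or 2. Markers of sinusoidal endothelium and stellate cells leaned upward too, but not they alone. Above 0 were 12 of 13 neutrophil markers (median 0.295) and 8 of 8 B and plasma cell markers (0.28). The same held for 9 of 11 MHC class II genes (0.213) and 17 of 26 T and NK cell markers (0.182). The 32 Kupffer cell and macrophage markers did not, with 18 above 0, 14 below it and a median of 0.02, against 0.086 for all tested genes. Of 27 sinusoidal endothelial markers, 26 had a log2 fold change above 0, with a median of 0.37, 1 rose (9 without Ad-Ctrl replicate 1, and 0 without any other single mouse but Ad-shmGULL replicate 3), 6 were apart upward (22.2%) and 4 were higher at the cutoff (14.8%; 0 with median-of-ratios scaling). Their summed level ran from 414 to 677 TPM in Ad-Ctrl and from 649.7 to 777 TPM in Ad-shmGULL mice. Of 40 stellate cell and matrix genes, 33 were above 0, with a median of 0.24, and 1 rose, at summed levels of 529 to 861 and 718 to 853 TPM. The part of these cells in the cell cycle values and in the other rises was not tested. Of 32 p53 targets 5 rose (9 without Ad-Ctrl replicate 1, 0 without Ad-Ctrl replicate 2 or 3, and 1 without Ad-Ctrl replicate 4 or Ad-shmGULL replicate 1, 2 or 4) and 2 fell. Plk2, Perp, Aen, Phlda3 and Eda2r were the risers, the last 2 with log2 fold changes of 1.46 and 1.29, and Trp53inp1 and Plk3 fell (-0.51 and -0.67).

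**Figure D5:**
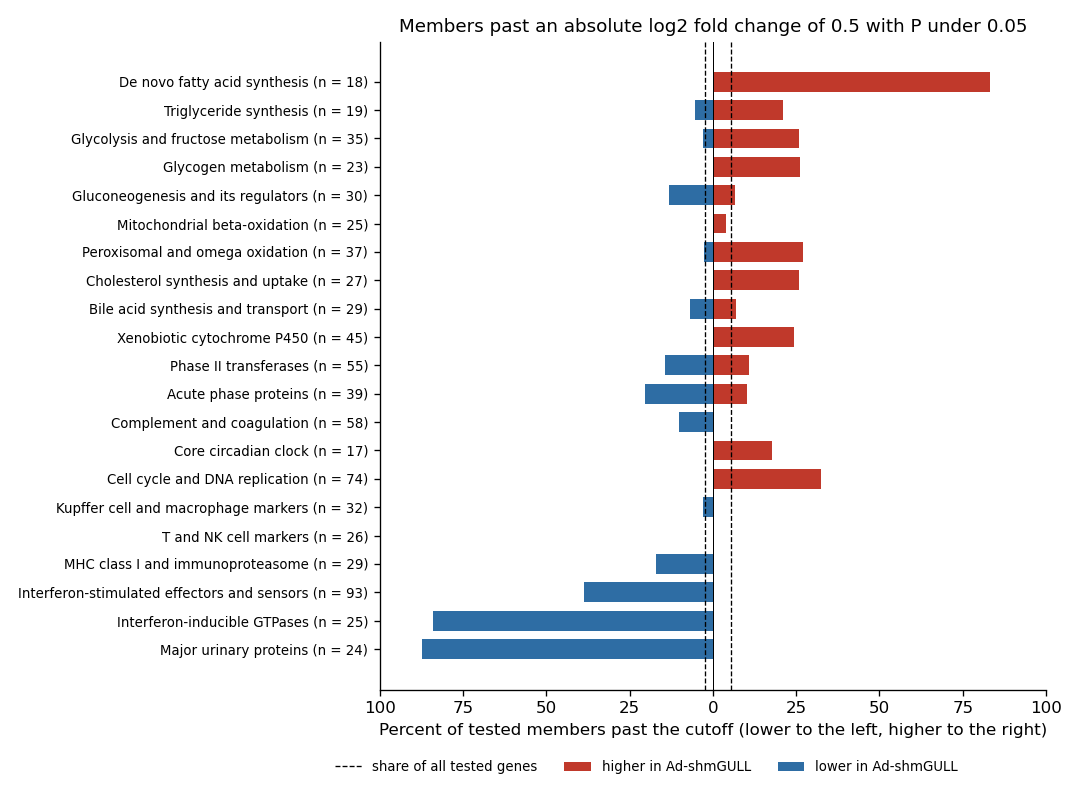
Percent of the tested members of 21 gene lists past the study's cutoff (absolute log2 fold change above 0.5 with P under 0.05), higher in Ad-shmGULL to the right (red) and lower to the left (blue), with dashed lines at the shares of all tested genes (5.33% higher and 2.31% lower). The bars of fatty acid synthesis (83.3% higher), interferon-inducible GTPases (84% lower) and major urinary proteins (87.5% lower) are the longest.

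Single genes outside these lists also separated the groups. Sdf2l1, a chaperone cofactor of the endoplasmic reticulum, was at 61.7, 60.5, 60.2 and 69.3 TPM in the Ad-Ctrl mice and 24.6, 13.2, 36.3 and 24.4 TPM in the Ad-shmGULL mice (log2 fold change -1.40 ± 0.22, adjusted p = 0.00975), and of 49 genes of the unfolded protein and integrated stress responses 2 more fell, Xbp1 (-0.42) and Dnajb9 (-0.70), and 1 rose, Sel1l (0.27). Slc30a10, a manganese exporter, rose from 8.36 ± 1.87 to 18.5 ± 2.28 TPM (log2 fold change 1.07 ± 0.14, adjusted p = 0.00589), and Slc39a5, a zinc importer, from 1.77 ± 1.09 to 13.4 ± 4.43 (log2 fold change 2.43 ± 0.36, adjusted p = 0.00783). Slc26a1, a sulfate transporter, fell from 163 ± 11.7 to 90.3 ± 21.3 (log2 fold change -0.87 ± 0.15, adjusted p = 0.0122). Ly6d, Wfdc2 and Cd207 were among the 15 largest rises, at 17.1 ± 11.9, 7.99 ± 4.16 and 5.41 ± 3.46 TPM with the control virus and 69.2 ± 28.7, 31.3 ± 7.87 and 21.5 ± 5.50 TPM with the knockdown virus. In these 3 the groups did not overlap.

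The short noncoding RNAs Rn7s2 and Gm23686 were among the largest falls, but their class did not fall as a whole. Of 14 tested RNAs of polymerase III and the spliceosome, 2 fell and 9 had a log2 fold change above 0, with a median of 0.11. Rn7s2, an RNA of the signal recognition particle, was at 14415, 21076, 28406 and 18849.6 TPM in the Ad-Ctrl mice and 8569, 2320.1, 3526 and 2446 TPM in the Ad-shmGULL mice (log2 fold change -2.47 ± 0.37, adjusted p = 0.00827), and the small nuclear RNA gene Gm23686 fell from 36.2 ± 8.49 to 8.56 ± 4.11 TPM. Rn7s2 has near-identical copies in the genome, and short RNAs are recovered unevenly by standard libraries, so these values are uncertain.

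Several liver programs held few or no calls. Of 79 cytosolic ribosomal protein genes 0 were called by limma, 2 had an unadjusted p under 0.05 and 0 were past the cutoff, with a median of -0.04. Of 53 autophagy and lysosome genes 0 were called, 6 had an unadjusted p under 0.05 and 1 was past the cutoff. Of 31 NRF2 antioxidant genes and 25 genes of the urea cycle and glutamine breakdown 0 were called (9 and 7 had an unadjusted p under 0.05). At the cutoff 3 NRF2 genes were higher (9.68%, against 5.33% of all genes) and 0 lower, or 2 and 2 with median-of-ratios scaling. In the urea cycle list 2 were lower there (8%, against 2.31%) and 0 higher, or 5 and 0 with that scaling. Of 74 nuclear genes of oxidative phosphorylation 1 rose and 1 fell. For these 5 lists the medians lay between -0.1 and 0.26. Log2 fold changes above 0 were found for 26 of 31 NRF2 and 64 of 74 oxidative phosphorylation genes. They were found for 31 of 53 autophagy and lysosome, 26 of 79 ribosomal protein and 7 of 25 urea cycle genes. In bile acid synthesis, Cyp7a1, the rate-limiting enzyme, was at 185, 268, 275 and 290.1 TPM in the Ad-Ctrl mice and 80.9, 249.8, 255 and 308 TPM in the Ad-shmGULL mice and Cyp8b1, which sets the ratio of cholic acid, had a log2 fold change of -0.04, neither of them called.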

How the data were processed

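Liver RNA of 4 Ad-Ctrl and 4 Ad-shmGULL mice was compared, grouped by the sample titles. Per the labels and methods, the authors trimmed strand-specific reads with fastp 0.23.2, checked them with FastQC 0.11.8, aligned them to GRCm38.p6 with HISAT2 2.2.1.0, counted them on GENCODE genes with featureCounts (Subread 2.0) and deposited TPM values. Because TPM have 1 fixed total, depth is unknown. Here log2(TPM + 1) of genes with a mean TPM of at least 1 over these 8 mice was fitted with limma 3.58.1 in R 4.3.3, in 1 model of 3 groups over 12 mice with a variance trend, and p-values were adjusted by Benjamini-Hochberg over 16256 genes. The procedure was tested on simulated data.

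The comparison and its 65 gene lists (1884 of 1893 symbols matched, older ones through RefSeq) were chosen with earlier results of these data known, and 2 of the lists were added after seeing values. Named genes are the 15 largest rises and 15 largest falls among called genes whose groups did not overlap, up to 6 called members with the smallest p and up to 6 preset members of each list discussed, the 3 members with the smallest p of a symbol root, the qRT-PCR panel and the neighbors of mGULL, of which some are not reported here. Alb, Aacs, Acsl5, Eda2r, Elovl1, Eno1, Eno1b, Marco, Mid1ip1, Pfkfb3, Pfkl, Pgk1, Scd2 and Slc25a1 were named after their values were seen. Alternatives were a pseudocount of 0.1, other filters and scalings, other variance models, a replicate block and leaving out mice. Figures were drawn with matplotlib 3.10.9.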

Additional observations from a re-analysis of the deposited data

Results flagged for a closer look

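In the groups of 4 mice behind the named genes, a mouse was marked where its gap to the nearest other mouse took up more of the group's range than Dixon's 95% critical value for 4 samples. This picked out 22 of 266 groups, and chance picks out about 1 in 20. The cause was not tested in any of them.

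In Ad-shmGULL, replicate 2 stood above the other mice for Elovl6 (422 TPM), Eno1 (335 TPM), Ly6d (112 TPM) and Me1 (1123 TPM). Replicate 4 stood above the others for Cyp7b1 (503 TPM), Mup19 (108 TPM) and Ugt2b38 (10.6 TPM), and below them for Plk3 (85.3 TPM). Replicate 3 stood above the others for Mgst1 (2097 TPM) and Mx2 (8.17 TPM), and replicate 1 for Ppp1r3g (14.4 TPM).

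In Ad-Ctrl, replicate 2 stood above the others for Bcl6 (54.2 TPM), Dgat2 (488 TPM), Hsd3b5 (225 TPM) and Mlxipl (167 TPM). Replicate 1 stood above them for Eno1 (207 TPM), Fkbp4 (99.4 TPM) and Slc25a1 (247 TPM) and below them for Crem (7.51 TPM). Replicate 3 was the highest for Cyp4a14 (434 TPM) and Ghr (191 TPM), and replicate 4 for Sdf2l1 (69.3 TPM).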

How the results depend on the processing

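In every alternative fit, those of the 158 called genes of the naming rule that were still tested (143 at a mean TPM of at least 5, 146 with protein-coding genes only) kept their direction. Calls depended on which mice set the spread and on scaling. The spread from the 8 mice compared left 35 calls (28 higher, 7 lower), the data without Ad-shmGULL replicates 1 and 2, an alternative chosen after seeing the data, 64 (49 and 15), no filter on low values 263 (198 and 65), and no variance trend 347 (263 and 84). Lower calls were 344 with median-of-ratios scaling, 291 with quantile normalization and 233 with protein-coding genes only. Leaving out 1 mouse gave 170 to 1059 calls (126 to 814 higher, 40 to 245 lower). At the study's cutoff, a mean TPM of at least 5 gave 754 genes, 499 of them higher, and quantile normalization 577 higher. For fatty acid synthesis, calls were 6 with 8 mice and 5 without both mice, and for glycolysis and fructose metabolism 3 and 4, with 7 without a filter and 6 to 13 without 1 mouse. For interferon effectors, calls were 2 without a filter, 27, 25, 18 and 26 with median-of-ratios, quantile, without the 20 highest genes and with protein-coding genes only, 7 without trend, 3 with array weights, 0 with 8 mice or without both mice, and 1 to 14 without 1 mouse. For GTPases they were 1, 11 (median of ratios), 13 (protein-coding), 2 (no trend), 1 (array weights), 0 and 0, and 1 to 12 without 1 mouse. For major urinary proteins they were 1 without a filter, 5 without trend, 4 with array weights, 0 with 8 mice or without both, and 0 to 16 without 1 mouse. For the cell cycle they were 0 without a filter, 6 (protein-coding), 1 without trend or with array weights, 0 with 8 mice or without both, and 0 to 24 without 1 mouse. The median of the lipogenic regulators turned to -0.0314 with median-of-ratios scaling. Leaving out a mouse or fitting 8 removes residual degrees of freedom by construction, and dropping the filter adds genes to the adjustment. For the other alternatives the cause was not tested. The depth behind TPM is unknown, so no detection limit can be given.

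Same-numbered control and knockdown mice did not deviate together (r of deviations from the group means 0.0315, -0.247, -0.0296 and 0.0335 over genes), so the numbers are not taken to pair the samples. With a replicate block the model called 418 genes, with 5 interferon effectors and 2 GTPases lower.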

Other observations

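Conjugating enzymes moved in both directions. Of 55 phase II transferases, 4 rose and 3 fell (1 and 0 without Ad-shmGULL replicate 2, 7 and 5 without Ad-Ctrl replicate 1, and 0 and 0 with the spread from 8 mice), and 6 were higher (10.9%) and 8 lower (14.5%) at the cutoff. Inmt, an amine N-methyltransferase, was at 588, 479, 529 and 408 TPM in the Ad-Ctrl mice and 1113, 913, 825 and 838 TPM in the Ad-shmGULL mice (log2 fold change 0.88 ± 0.13, adjusted p = 0.00757), with the groups apart. Sult1c2, a sulfotransferase, Ugt1a5, a glucuronosyltransferase, and Gstt3, a glutathione transferase, rose by 0.80, 0.77 and 0.83 on the log2 scale, while Ugt2a3 fell from 369 ± 59.3 to 229 ± 45.5 TPM. The carboxylesterases were divided as well, with 4 of 14 higher and 3 lower at the study's cutoff.

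Of 67 genes of amino acid breakdown, 2 rose and 1 fell, while 1 was higher and 8 were lower at the cutoff (11.9%, against 2.31% of all genes; 11 with median-of-ratios scaling, 4 without Ad-shmGULL replicate 2 and 0 without replicates 1 and 2). Csad, which makes taurine, was at 367, 309.7, 288 and 273 TPM in the Ad-Ctrl mice and 716, 590.4, 488 and 488 TPM in the Ad-shmGULL mice (log2 fold change 0.87 ± 0.16, adjusted p = 0.0169). Of the branched-chain keto acid dehydrogenase, the subunit gene Bckdha rose (0.29) and Dbt fell (-0.52). Among genes of insulin signalling, 2 of 31 rose, Irs1 (0.43) and Igf2r (0.45), and Irs2 was at 14.02, 17.9, 17.5 and 15.1 TPM in the Ad-Ctrl mice and 11.3, 13.4, 11.7 and 12.2 TPM in the Ad-shmGULL mice (adjusted p = 0.213). Fkbp4, a cochaperone of steroid receptors, rose from 89.6 ± 6.53 to 138 ± 16.7 TPM (log2 fold change 0.62 ± 0.09, adjusted p = 0.00783), and Stab2, a scavenger receptor of sinusoidal endothelium, rose from 34.9 ± 6.72 to 50.9 ± 7.31 TPM (log2 fold change 0.54 ± 0.13, adjusted p = 0.0473), the 1 call of 27 endothelial markers.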
